A study of Mus musculus with 412 samples.

Results

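Voltage-gated potassium (Kv) channel alpha subunits were followed across single mouse colonic sensory neurons. The members were the protein-coding genes whose symbols begin with Kcna, Kcnb, Kcnc, Kcnd, Kcnf, Kcng, Kcnh, Kcnq, Kcns or Kcnv and end in a number, which gave 40 of the 45513 genes in the table. All 40 were above 0 in at least 1 neuron. The neurons had been traced back from the colon wall of C57BL/6J mice with the dye Fast Blue, picked by hand from primary cultures of dorsal root ganglia (DRG), which came from thoracolumbar (TL) levels T10-L1 or lumbosacral (LS) levels L5-S2, and sequenced with a modified Smart-seq2 protocol. The table held 167 TL and 158 LS neurons from 6 plates, and plate 1 held TL neurons only. The mice of both groups were healthy, no treatment other than the tracer is given, and their age is not given in the sources used here. No label tied a neuron to a mouse or a culture, so TL and LS were each 1 sample, differences between them have no test, and segment and culture cannot be told apart.

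Kv alpha subunits form the pore of the channels that carry potassium out of a depolarised neuron, and thereby set its resting potential, spike width and firing rate. The alpha subunits of 1 family, from the same or related genes, assemble around each pore. Kcna (Kv1), Kcnb (Kv2), Kcnc (Kv3) and Kcnd (Kv4) genes encode the Shaker-related families, Kcnq (Kv7) genes the M-current channels, and Kcnh genes the ether-a-go-go (EAG), EAG-related (ERG) and EAG-like (ELK) channels. Kcnf, Kcng, Kcns and Kcnv genes encode electrically silent subunits, which are known to carry no current alone and to join Kv2 subunits. In DRG neurons these channels are known for their part in setting excitability, and Kv subunit levels are known to fall after nerve injury.

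The feature that the members share is the selectivity filter, the short pore stretch that lets potassium through and keeps sodium out, and its codons are shown because their form is shared within groups of families. The longest coding sequence of each gene in GENCODE M21 (GRCm38) was searched in frame, on the coding strand. The potassium channel signature has 5 codons, and a match was a run in frame of ACN, a variable second codon, GGN, then TAN, and a closing GGN. With GTN as the second codon it was found in 20 members, among them all Kcna, Kcnb and silent genes, and in 0.116% of 21630 coding genes. CTN in that place was found in 6 members and 0.0509% of coding genes, and TTN in 1 member (Kcnc2) and 0.0231%, so that all Kcnc and Kcnd genes held 1 of these forms. ATN was found in all 5 Kcnq genes and 0.129% of coding genes. In the Kcnh genes the first codon was AGN and the fourth TTN, a form found in 7 of the 8 and in 0.0647% of coding genes. Kcnh5 held none of the forms searched. These took only ACN or AGN as the first codon, so a filter written in other codons was not looked for. Any of them was present in 39 of 40 members and 0.411% of coding genes. The lines give these codons in capitals with 9 bases on each side in lower case, for the members that the comparisons turn on.
Kcna1: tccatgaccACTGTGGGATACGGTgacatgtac
Kcna6: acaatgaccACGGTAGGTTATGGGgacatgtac
Kcnc2: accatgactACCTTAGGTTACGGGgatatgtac
Kcnc4: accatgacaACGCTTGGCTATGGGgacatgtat
Kcnd1: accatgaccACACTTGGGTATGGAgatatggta
Kcng1: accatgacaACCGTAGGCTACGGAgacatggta
Kcns3: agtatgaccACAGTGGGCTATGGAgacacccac
Kcnv1: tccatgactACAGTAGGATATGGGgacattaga
Kcnh6: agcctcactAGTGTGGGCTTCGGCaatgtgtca
Kcnh7: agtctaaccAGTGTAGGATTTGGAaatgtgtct

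Neurons were classed by 2 genes that are no members. Gfra3 encodes the artemin receptor, typical of peptidergic neurons, and Piezo2 a mechanically activated channel. At a level of 10 or more (of a sum of 1000000, after each neuron's values were scaled to the same sum and with gene length divided out), 82 TL and 76 LS neurons had Gfra3 only, 55 TL and 65 LS neurons Piezo2 only, 18 and 7 both, and 12 and 10 neither. The neurons nearest the threshold had Gfra3 at 9.63 and 10.98 and Piezo2 at 9.99 and 10.9. The 8 sensory neuron markers fixed for the check had a mean of at least 10 in each of these groups. The summed level of 4 peptidergic markers reached 28268 in the median TL Gfra3-only neuron and 29516 in the median LS one, against 4513 and 10723 in Piezo2-only neurons. For 4 neurofilament markers the values were 537 and 546, against 1616 and 1480.2. The Piezo2-only class was mixed in TL, where 12 of 55 neurons had Mrgprd, a receptor of non-peptidergic neurons, at 10 or more, against 1 of 65 in LS. The 10 satellite glia and Schwann markers summed to 2064 in the median TL neuron (range 5.61 to 99876) and to 282 in the median LS neuron (8.78 to 59771), and 9 and 7 of the 10 had a mean of at least 10. Their part in the segment differences was not tested, and values without the 63 neurons whose sum was 5000 or more are given below. Of 8 macrophage markers, 0 had a mean of at least 10 in TL or in LS neurons, and the summed level reached 133 in TL and 90.0 in LS. The 2 neurons with an endothelial sum of 100 or more were both TL Piezo2-only.

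The recovered reads per neuron ran from 416007 to 12058968 (median 2867071), with medians of 2709639 in TL and 3202776 in LS. In the median neuron a level of 10 stood for 24.0 to 198 reads, depending on the length of the member.

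Over all 325 neurons, 7 members reached 10 in at least 50% of the neurons. Among them were Kcns3 (301 neurons), Kcnd1 (295), Kcna6 (286), Kcnh6 (260), Kcnc2 (255) and Kcnb2 (227). Each channel family except Kv7 was therefore represented among them. In order of mean level the leading members were Kcns3 at 96.0, Kcnd1 at 56.1, Kcnc2 at 50.5, Kcnh6 at 46.6, Kcna6 at 33.8, Kcnc4 at 22.9 and Kcnv1 at 22.1. Another 19 members reached 10 in 5% to under 50% of neurons and 14 in under 5%, and Kcna7 and Kcnh4 reached it in none. A count of 0 in 325 neurons allows a share of up to 0.923%, a bound that covers counting error only. In 19 members the mean reached 10 in at least 1 of the 4 groups of segment and class, and those reported are described in turn, with their position in GRCm38 as GENCODE M21 gives it. The means of the other 21 were under 10 in each of the 4 groups.

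**Figure D1:**
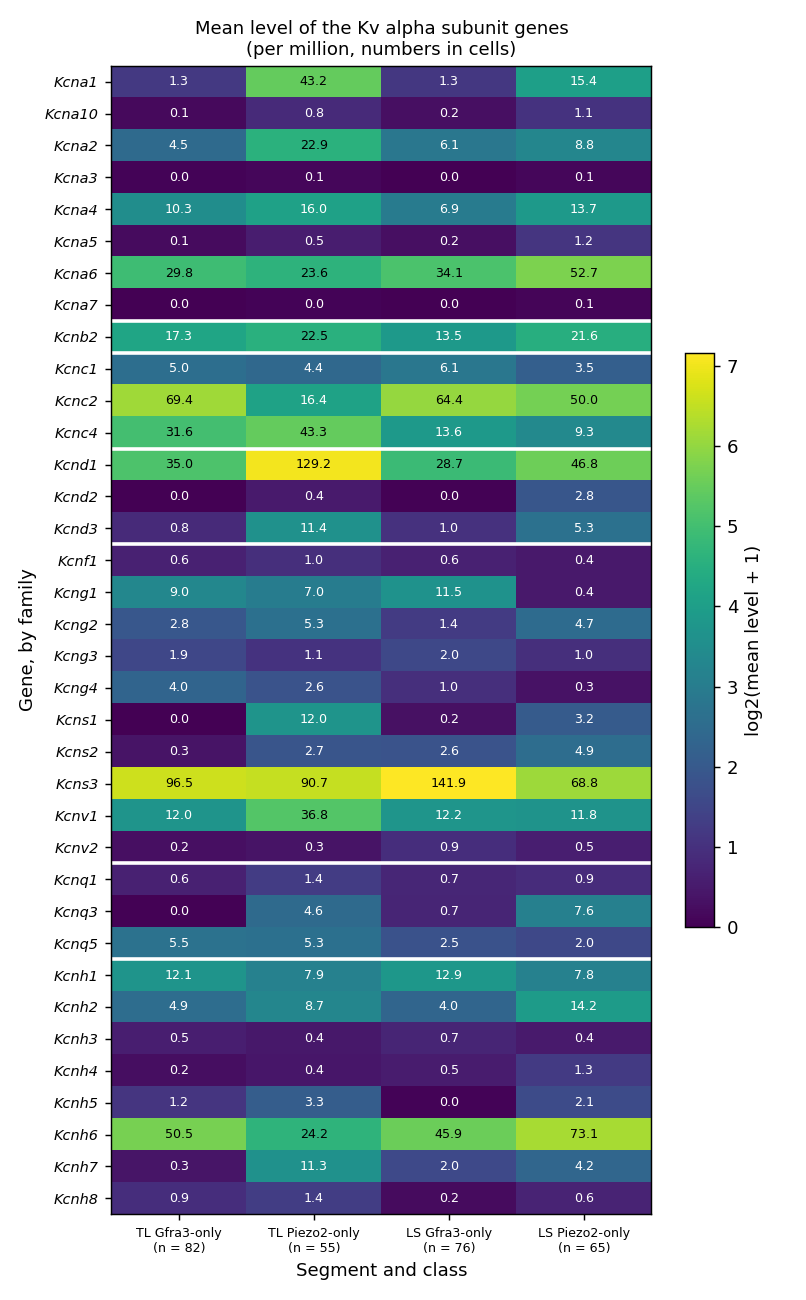
Mean level (per 1000000, printed in each cell, colour on a log2 scale of mean + 1) of 36 Kv alpha subunit genes, by family in rows, in the TL and LS neurons of the Gfra3-only and Piezo2-only classes in columns. Kcns3 is highest in both Gfra3-only columns, Kcnd1 in TL Piezo2-only and Kcnh6 in LS Piezo2-only neurons.

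Kcna genes encode low-threshold channels that oppose repetitive firing, and Kcna1 (ENSMUSG00000047976, chromosome 6 from 126640397 to 126646384, minus strand) encodes the subunit known from axons and large, fast-conducting neurons. Its lowest, median and highest levels were 0, 0 and 30.3 in TL Gfra3-only neurons and 0, 20.0 and 238 in TL Piezo2-only neurons. In LS they were 0, 0.0430 and 15.3 in Gfra3-only and 0, 7.39 and 154 in Piezo2-only neurons. The ranges overlapped, and the classes differed in how many neurons reached 10, 3 of 82 and 1 of 76 Gfra3-only neurons against 37 of 55 and 27 of 65 Piezo2-only neurons in TL and LS. The mean was 34.1-fold higher in Piezo2-only than in Gfra3-only neurons within TL and 12.3-fold within LS, in each of plates 2 to 6, and 94.4-fold in TL without neurons with a glial sum of 5000 or more. Within the Piezo2-only class the TL mean of 43.2 was 2.81-fold the LS mean of 15.4. The log2 difference was -1.49 (SD over plates 1.33, n = 5), and in TL the mean was 52.2 in the 43 neurons without Mrgprd and 10.6 in the 12 with it. Without neurons that had few genes detected the LS to TL ratio was 0.387 in place of 0.357, and the direction was no longer the same in every plate.

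Kcna2 (ENSMUSG00000040724, chromosome 3 from 107101146 to 107115005, plus strand), which encodes a common partner of the Kcna1 product, was likewise highest in TL Piezo2-only neurons. Its lowest, median and highest levels were 0, 17.9 and 97.1 in TL Piezo2-only neurons, 0, 5.95 and 43.2 in LS Piezo2-only, 0, 2.91 and 22.4 in TL Gfra3-only and 0, 4.54 and 32.5 in LS Gfra3-only neurons. The Piezo2-only mean was 5.08-fold the Gfra3-only mean within TL. Within LS the means of 8.82 and 6.12 were both under 10. Among the 37 TL Piezo2-only neurons with Kcna1 at 10 or more, 28 also had Kcna2, and of the 34 with Kcna2 they made up 82.4%. In LS Piezo2-only neurons both were present in 11, or 40.7% of those with Kcna1 and 55% of those with Kcna2. Among all Piezo2-only neurons Kcna2 reached 10 in 34 of 55 in TL and 20 of 65 in LS, and Kcna1 in 37 and 27. Whether the overlap exceeds what these shares give was not tested.

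Kcna4 (ENSMUSG00000042604, chromosome 2 from 107290639 to 107298502, plus strand) encodes the inactivating, A-type member of the Kv1 family. Its median was 9.38 in TL Gfra3-only, 13.2 in TL Piezo2-only, 4.64 in LS Gfra3-only and 9.23 in LS Piezo2-only neurons, with highest values of 29.2, 57.7, 36.5 and 63.4 and a lowest of 0 in each group. The LS Gfra3-only mean was the lowest, at 6.87, and 2.00-fold under the LS Piezo2-only mean of 13.7, which just met the 2-fold limit and did so under 7 of 18 alternative settings. Without plate 2 the ratio of Gfra3-only to Piezo2-only was 0.504, without plate 3 0.505 and without plate 5 0.507.

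Kcna6 (ENSMUSG00000038077, chromosome 6 from 126708329 to 126740674, minus strand), a Kv1 subunit known from small and medium DRG neurons, was the most widespread Kcna gene. Its lowest, median and highest levels were 0.988, 28.7 and 138 in TL Gfra3-only neurons, 0, 27.2 and 64.0 in TL Piezo2-only, 0, 34.4 and 71.4 in LS Gfra3-only and 7.54, 49.0 and 109.6 in LS Piezo2-only neurons. It reached 10 in 64 of 65 LS Piezo2-only neurons but in 39 of 55 TL ones, the lowest share of the 4 groups. The LS mean within the Piezo2-only class, 52.7 ± 23.9 (SD over neurons, n = 65), was 2.23-fold the TL mean of 23.6 ± 16.7 (n = 55). Between segments within the Gfra3-only class the ratio was 1.14. Kcna3, Kcna5, Kcna7 and Kcna10, the remaining Kcna genes, had means of 0 to 1.16 over the 4 groups and reached 10 in at most 2 neurons each.

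Kcnb genes encode the delayed rectifiers that repolarise the spike during sustained firing and are the known partners of the silent subunits. Kcnb2 (ENSMUSG00000092083, chromosome 1 from 15287254 to 15723750, plus strand) had lowest, median and highest levels of 0, 14.9 and 62.9 in TL Gfra3-only, 0.713, 23.7 and 45.0 in TL Piezo2-only, 0, 11.8 and 36.9 in LS Gfra3-only and 0, 19.9 and 49.0 in LS Piezo2-only neurons. The groups overlapped throughout, and the 2-fold limit was not met in any of the 6 comparisons, whose ratios ran from 0.625 to 0.957. Kcnb2 lay lower in Gfra3-only than in Piezo2-only neurons in each plate, at 0.703.

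Kcnc genes encode fast channels that open at high voltages and allow narrow spikes at high rates. Kcnc4 (ENSMUSG00000027895, chromosome 3 from 107438303 to 107459552, minus strand), which encodes an inactivating subunit that keeps spikes brief in nociceptors, showed the clearest segment difference among the members. In TL neurons its lowest, median and highest levels were 0, 21.5 and 165 in the Gfra3-only and 0, 34.9 and 189 in the Piezo2-only class. In LS they were 0, 7.31 and 85.0 and 0, 0.881 and 217. LS neurons thus lay low in both classes although the highest LS Piezo2-only neuron was above the highest of both TL groups, and 10 was reached by 50 of 82 TL and 35 of 76 LS Gfra3-only neurons and by 40 of 55 TL and 8 of 65 LS Piezo2-only neurons. These shares were 72.7% (59.0% to 83.9%) and 12.3% (5.47% to 22.8%) for the Piezo2-only class, with exact 95% intervals that cover counting error only.

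In plates 2 to 6 the Kcnc4 means of Piezo2-only neurons were 5.60, 4.82, 1.85, 17.9 and 17.0 in LS against 29.8, 36.5, 37.7, 48.2 and 61.0 in TL, and those of Gfra3-only neurons were 12.4, 9.74, 13.9, 15.9 and 13.0 against 20.3, 15.9, 33.8, 44.1 and 30.9. LS was lower in every plate and both classes. Over all neurons the TL mean of 33.8 was 2.95-fold the LS mean of 11.4, a log2 difference of -1.56 (SD over plates 0.45, n = 5). Within the Gfra3-only class the difference was 2.33-fold and within the Piezo2-only class 4.64-fold. The call within the Gfra3-only class was kept under 16 of 18 alternatives, and was lost with a 3-fold limit and with mean log2(level + 0.1) in place of the mean. Leaving out the neurons with a glial sum of 5000 or more gave LS to TL ratios of 0.325, 0.441 and 0.217, in place of 0.339, 0.429 and 0.215. Leaving out those with Mrgprd gave 0.342, 0.435 and 0.206.

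Kcnc2 (ENSMUSG00000035681, chromosome 10 from 112271121 to 112467024, plus strand), another subunit of fast delayed rectifiers, had a different order of groups. Its lowest, median and highest levels were 0, 78.7 and 206 in TL Gfra3-only, 0, 65.7 and 134 in LS Gfra3-only, 0, 52.2 and 120.5 in LS Piezo2-only and 0, 8.50 and 122 in TL Piezo2-only neurons. The TL Piezo2-only group stood apart with a median under 10, and 25 of 55 neurons reached 10 against 73 of 82, 72 of 76 and 60 of 65 in the other groups. In TL the Gfra3-only mean was 4.23-fold the Piezo2-only mean, and in LS 1.29-fold. Within the Piezo2-only class the LS mean of 50.0 was 3.05-fold the TL mean of 16.4, with a log2 difference of 1.61 (SD over plates 1.00, n = 5). In TL Piezo2-only neurons the mean was 19.4 without and 5.51 with Mrgprd at 10 or more. Without neurons that had few genes detected the LS to TL ratio within this class was 2.96, but the direction no longer held in every plate. Kcnc1, another Kv3 gene, had means of 3.45 to 6.13 over the 4 groups and reached 10 in 33 neurons.

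**Figure D2:**
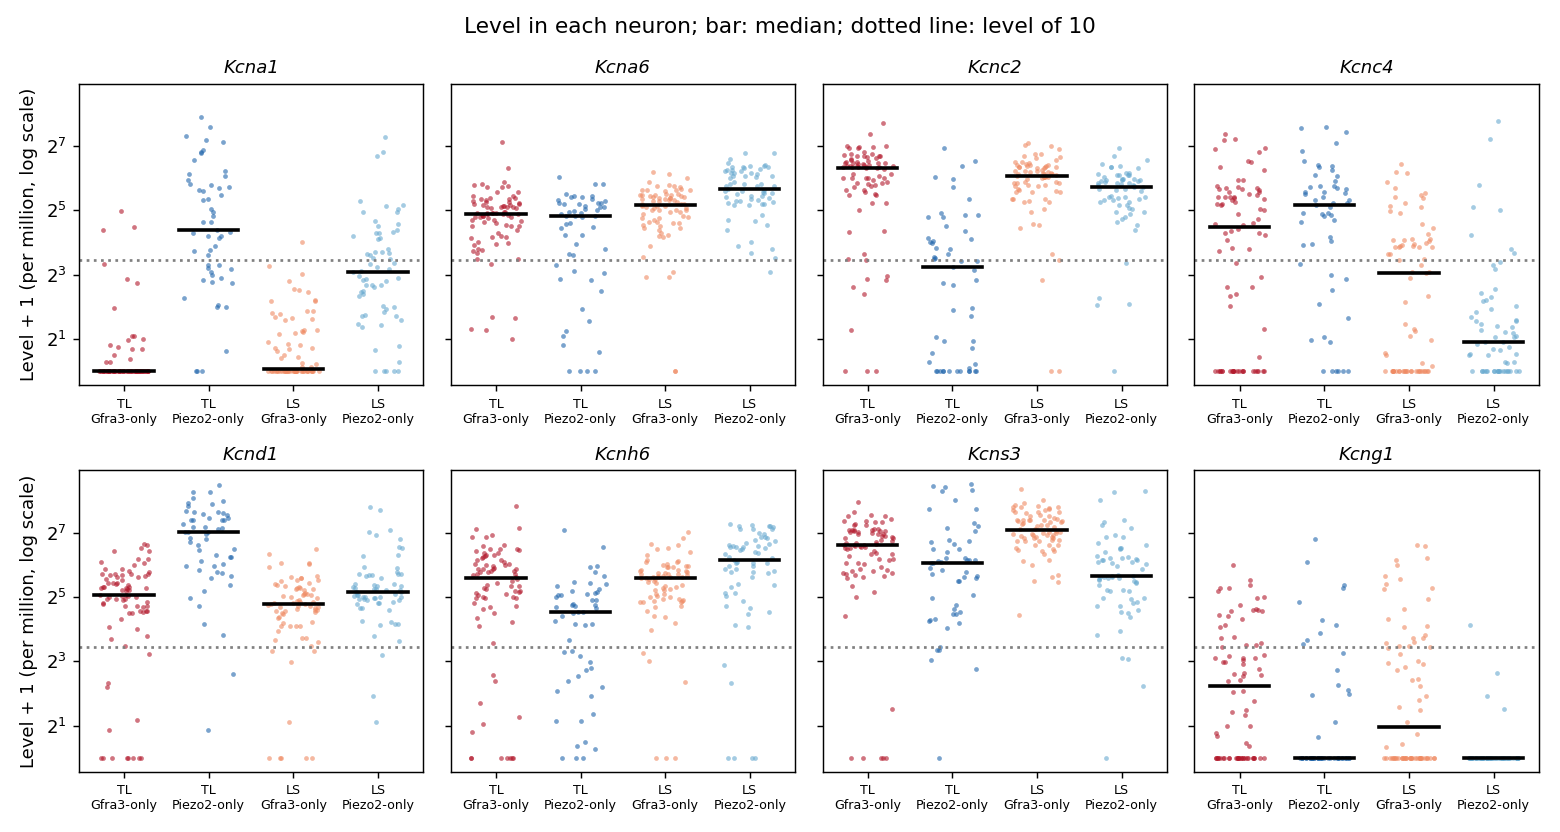
Level + 1 (per 1000000, log axis) of 8 members in every neuron (points) of the TL and LS Gfra3-only and Piezo2-only groups, with the median as a bar and a level of 10 as a dotted line. Kcnc4 is low in LS groups, Kcna1 in Gfra3-only groups, Kcng1 in LS Piezo2-only neurons and Kcnc2 in many TL Piezo2-only neurons, and single neurons of every group overlap.

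Kcnd genes encode A-type channels that activate below threshold and delay the next spike. Kcnd1 (ENSMUSG00000009731, chromosome X from 7822289 to 7838280, plus strand) was the highest member in TL Piezo2-only neurons, with lowest, median and highest levels of 0.819, 127 and 354. In the other groups they were 0, 32.2 and 99.4 (TL Gfra3-only), 0, 26.6 and 88.7 (LS Gfra3-only) and 1.18, 34.9 and 218 (LS Piezo2-only). The TL Piezo2-only median lay above the upper quartile of each other group, which was at most 50.5. Within the Piezo2-only class the TL mean was 2.76-fold the LS mean, with a log2 difference of LS to TL of -1.47 (SD over plates 0.34, n = 5), while within the Gfra3-only class the LS to TL ratio was 0.820. In TL neurons with Mrgprd at 10 or more the mean was 207 (n = 15) against 61.1 (n = 152) in the rest of TL. Without the Mrgprd neurons the LS to TL ratio was 0.599 over all neurons in place of 0.497, no longer past 2-fold, and 0.458 within the Piezo2-only class in place of 0.362. Without plate 5 the ratio over all neurons was 0.519, and without plate 6 it was 0.514, also within 2-fold. Kcnd3 (ENSMUSG00000040896, chromosome 3 from 105452330 to 105674002, plus strand) had medians of 9.83 in TL and 4.43 in LS Piezo2-only neurons, with highest levels of 32.0 and 22.2, and reached 10 in 1 of 82 TL and 0 of 76 LS Gfra3-only neurons. Its mean in TL Piezo2-only neurons was 11.4, and 9.65 without the Mrgprd neurons, which ended its call between the classes in TL. Kcnd2 reached 10 in 3 neurons, each of them LS Piezo2-only.

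Among the silent subunits, Kcns3 (ENSMUSG00000043673, chromosome 12 from 11090202 to 11151056, minus strand), whose product slows and shifts the gating of Kv2 channels, was the most abundant Kv alpha gene. Its lowest, median and highest levels were 0, 96.1 and 247 in TL Gfra3-only, 0, 65.1 and 362 in TL Piezo2-only, 20.9, 135 and 327 in LS Gfra3-only and 0, 49.4 and 312 in LS Piezo2-only neurons. LS Gfra3-only neurons had quartiles of 106 and 175, and all 76 of them were at 10 or more. Within LS the Gfra3-only mean was 2.06-fold the Piezo2-only mean, and within TL 1.06-fold. The LS ratio was 1.95 without plate 3 and 1.87 without plate 4, under the 2-fold limit in both cases. In TL Piezo2-only neurons the Kcns3 mean was 27.5 with and 108 without Mrgprd at 10 or more.

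Kcnv1 (ENSMUSG00000022342, chromosome 15 from 45106284 to 45114920, minus strand), another modifier of Kv2 channels, was at or near 0 in many neurons and high in a few. Its median was 2.45 in TL Gfra3-only, 3.22 in TL Piezo2-only, 6.35 in LS Gfra3-only and 0 in LS Piezo2-only neurons, while the highest values were 166, 347, 90.0 and 319. It reached 10 in 21 of 82, 20 of 55, 31 of 76 and 5 of 65 neurons. In the neurons with both Gfra3 and Piezo2 it reached 10 in 15 of 18 TL and 3 of 7 LS neurons, with means of 69.7 and 68.3, and in those with neither gene in 8 of 12 and 3 of 10. The direction of its segment and class differences varied between plates.

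Kcng1 (ENSMUSG00000074575, chromosome 2 from 168260117 to 168281736, minus strand) and Kcns1 (ENSMUSG00000040164, chromosome 2 from 164163619 to 164171113, minus strand), which encode further silent subunits, had different class patterns. Kcng1 had lowest, median and highest levels of 0, 0.935 and 96.4 in LS Gfra3-only and 0, 0 and 16.7 in LS Piezo2-only neurons, and of 0, 3.71 and 63.3 and 0, 0 and 111 in TL. It reached 10 in 23 of 76 LS Gfra3-only and 1 of 65 LS Piezo2-only neurons, and in 24 of 82 and 10 of 55 in TL. The TL means of 9.02 and 6.97 stood at a ratio of 1.30, with the Gfra3-only mean higher in 3 of 5 plates and no call. The LS means of 11.5 and 0.408 differed 28.3-fold, and this ratio was 66.7 without plate 4 and 28.4 without plate 3, where the higher mean dropped under 10. Over both segments the Gfra3-only to Piezo2-only ratio was 3.00, 2.37 without plate 3 and 2.51 without plate 4, where the call was also not kept. Kcns1 reached 10 in none of the 82 TL and 76 LS Gfra3-only neurons, but in 21 of 55 TL and 6 of 65 LS Piezo2-only neurons. For the Gfra3-only groups this allows shares of up to 3.66% and 3.95%, bounds that cover counting error only. The lowest, median and highest levels in the Piezo2-only groups were 0, 6.44 and 77.5 in TL and 0, 0 and 40.0 in LS, and the TL mean of 12.03 was 3.81-fold the LS mean of 3.16. Of the other silent genes, Kcng2 reached 10 in 34 neurons, Kcns2 in 27, Kcng4 in 19, Kcnf1 in 6, Kcng3 in 2 and Kcnv2 in 1.

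Kcnq genes encode the slow M-type channels that hold the membrane near rest. Kcnq3, whose product is a subunit of the classical M-channel, was low but mostly found in the Piezo2-only class. Kcnq3 reached 10 in 9 of 55 and 20 of 65 Piezo2-only neurons in TL and LS, against 0 of 82 and 0 of 76 Gfra3-only neurons. Its highest group mean was 7.65. Kcnq1 and Kcnq5 reached 10 in 2 and 35 neurons.

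Kcnh6, Kcnh2 and Kcnh7 belong to the ERG group, whose channels inactivate fast, close slowly and damp firing. Kcnh6 (ENSMUSG00000001901, chromosome 11 from 106008124 to 106034549, plus strand) had lowest, median and highest levels of 0, 47.1 and 223 in TL Gfra3-only, 0, 22.3 and 135 in TL Piezo2-only, 0, 46.7 and 128 in LS Gfra3-only and 0, 69.5 and 154 in LS Piezo2-only neurons. TL Piezo2-only neurons were low, with 35 of 55 at 10 or more against 69 of 82, 70 of 76 and 59 of 65. The LS mean within the Piezo2-only class, 73.1 ± 44.0 (SD over neurons), was 3.01-fold the TL mean of 24.2 ± 24.5, with a log2 difference of 1.59 (SD over plates 0.52, n = 5), and the call was kept under 18 of 18 alternatives. In TL the Gfra3-only mean was 2.08-fold the Piezo2-only mean, a ratio that was 1.74 without plate 4. In LS the ratio was 0.628, so that it lay on the other side of 1, which was not so in plate 3.

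Kcnh2 (ENSMUSG00000038319, chromosome 5 from 24319589 to 24351604, minus strand), the ERG channel of the heart, had lowest, median and highest levels of 0, 14.6 and 55.0 in LS Piezo2-only and 0, 6.36 and 42.0 in TL Piezo2-only neurons, against 0, 0.0518 and 145 in LS Gfra3-only and 0, 0.0668 and 57.0 in TL Gfra3-only neurons. Within LS the Piezo2-only mean of 14.2 was 3.54-fold the Gfra3-only mean of 4.02, and 8.24-fold without plate 6, while the highest single Kcnh2 values were in Gfra3-only neurons. Over both segments the Gfra3-only to Piezo2-only ratio was 0.383, and 0.120 without neurons with a glial sum of 5000 or more. Kcnh7 (ENSMUSG00000059742, chromosome 2 from 62693414 to 63184287, minus strand), the remaining ERG gene, had lowest, median and highest levels of 0, 3.81 and 78.5 in TL and 0, 1.99 and 67.8 in LS Piezo2-only neurons. The TL mean of 11.3 was 2.70-fold the LS mean, an LS to TL ratio of 0.370 that was 0.365 without plate 6, where the TL mean of 9.23 was under 10 and neither this call nor that between the classes in TL was kept. Kcnh1 (ENSMUSG00000058248, chromosome 1 from 192190774 to 192510159, plus strand), an EAG gene, lay near 10 everywhere, with medians of 11.03, 10.8, 7.97 and 6.39 in TL Gfra3-only, LS Gfra3-only, TL Piezo2-only and LS Piezo2-only neurons. It was higher in Gfra3-only neurons in each plate, at a ratio of 1.59, within 2-fold. Kcnh3, Kcnh5 and Kcnh8 reached 10 in 3, 8 and 8 neurons.

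Counts over the family were read with 1 rule, in which a gene was called when its mean reached 10 in at least 1 group, the means differed at least 2-fold, and the direction was the same in each of plates 2 to 6. The 6 comparisons share neurons and are not independent of each other. Between the segments over all neurons, 13 members reached the mean, 0 were higher and 3 lower in LS (Kcna1, Kcnc4 and Kcnd1), against 2.46% and 2.26% of all genes that reached it (4.72% in either direction). The Kcna1 and Kcnd1 ratios of 0.496 and 0.497 lay just past the limit. Kcna1 was at 0.608 without plate 3, 0.531 without plate 4 and 0.511 without the pair of neurons with endothelial markers, so that Kcnc4 was the member whose segment difference stood most clear of the limit. The median log2 ratio of LS to TL was -0.35 over these members and 0.04 over all genes.

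Within the Gfra3-only class the calls were few, with 0 members higher and 1 lower (Kcnc4) in LS of 12, against a background of 1.88% and 1.56% (3.44% in either direction). Within the Piezo2-only class 3 members were higher (Kcna6, Kcnc2 and Kcnh6) and 7 lower (among them Kcna1, Kcna2, Kcnc4, Kcnd1, Kcnh7 and Kcns1) in LS of 17, against 4.69% and 2.94% of all genes (7.64% in either direction). Here the members' median log2 ratio was -1.10, and 0.03 over all genes. Whether the 2 classes differ in the segment contrast was not tested, and neither was the part of neuron subtype within a class. Without the Mrgprd neurons 10 members were called within the Piezo2-only class, and without neurons with a glial sum of 5000 or more 9, in place of 10. No share of all genes is given for these sets of neurons.

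**Figure D3:**
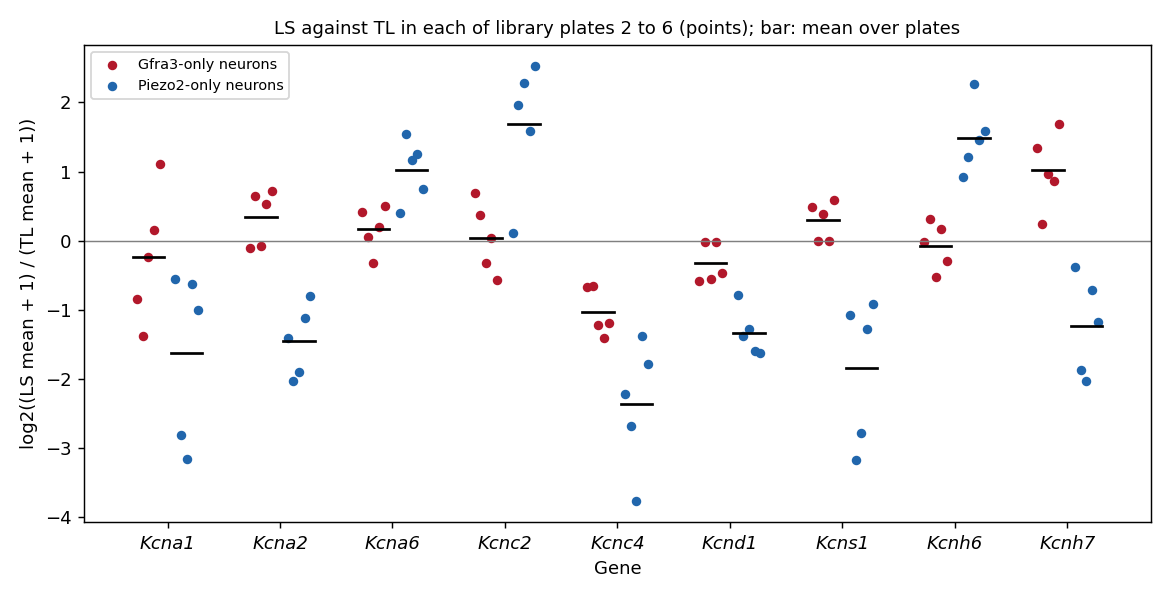
Difference between LS and TL in each of plates 2 to 6 (points, log2 of the ratio of mean level + 1, bar: mean over plates) for members called within the Piezo2-only class, in Gfra3-only (red) and Piezo2-only (blue) neurons. Kcnc4 lies below 0 in both classes in every plate, while Kcna6, Kcnc2 and Kcnh6 lie above 0 in Piezo2-only neurons in every plate.

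Between the classes over both segments, 1 member was higher (Kcng1) and 4 lower (Kcna1, Kcna2, Kcnd1 and Kcnh2) in Gfra3-only neurons of 15, against 3.99% and 5.48% of all genes (9.47% in either direction). Within TL 2 were higher (Kcnc2 and Kcnh6) and 7 lower (among them Kcna1, Kcna2, Kcnd1, Kcnd3, Kcnh7 and Kcns1) of 17, against 4.96% and 5.57% (10.5% in either direction). Within LS 2 were higher (Kcng1 and Kcns3) and 3 lower (Kcna1, Kcna4 and Kcnh2) of 14, against 3.98% and 5.32% (9.31% in either direction). Kcna1 was thus the member called against Gfra3-only neurons in both segments, under 18 of 18 alternatives in TL and 17 of 18 in LS. In LS the count was 3 without plate 3, for which no share of all genes is given.

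A single neuron usually had several Kv alpha genes. The median number of members at 10 or more was 10 in TL Gfra3-only (range 2 to 15), 13 in TL Piezo2-only (5 to 20), 8.50 in LS Gfra3-only (4 to 13) and 10 in LS Piezo2-only neurons (3 to 18), and 10 over all neurons. Neurons with neither Gfra3 nor Piezo2 had 6.50 in TL and 6.50 in LS, and also a lower median number of genes detected, 9199.5 and 9569.5 against 13658 over all neurons. Across neurons within a group the number of members went with the number of genes detected, with Spearman's rho of 0.48 (n = 82), 0.48 (n = 55), 0.23 (n = 76) and 0.16 (n = 65) in the same order of groups.

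The member with the highest level in a neuron differed between groups. Kcns3 led in 64 of 76 LS Gfra3-only and 49 of 82 TL Gfra3-only neurons, and Kcnc2 in 8 and 13. In TL Piezo2-only neurons Kcnd1 led in 23 of 55, Kcns3 in 14, Kcnv1 in 8 and Kcna1 in 6. In LS Piezo2-only neurons Kcnh6 led in 27 of 65, Kcns3 in 17 and Kcna6 in 10. Levels are per length here, so that members can be ranked within a neuron.

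**Figure D4:**
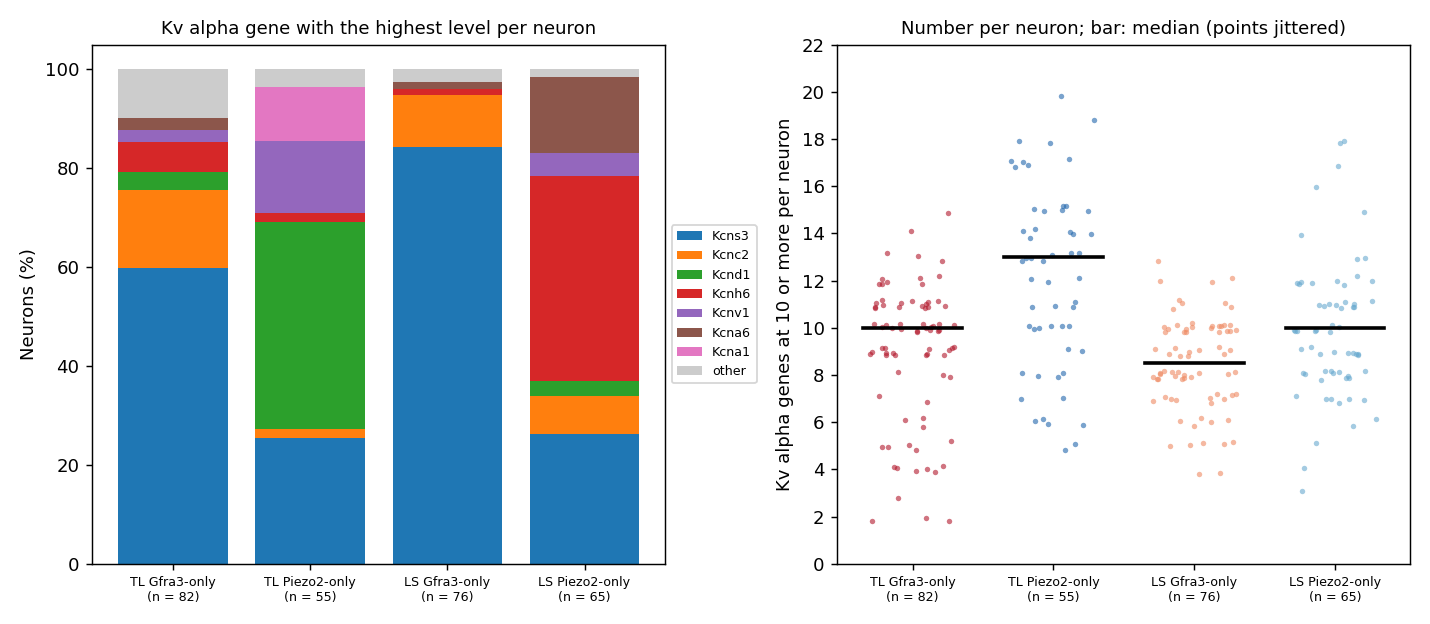
Left, share of neurons (%) in which each member has the highest level, by segment and class. Right, number of members at 10 or more in every neuron (points) with the median as a bar. Kcns3 leads in most Gfra3-only neurons, Kcnd1 in 23 of 55 TL and Kcnh6 in 27 of 65 LS Piezo2-only neurons, and the number is highest in TL Piezo2-only neurons at a median of 13.

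Levels of the described members were also set against each other across the neurons of each group, as a description only, since the points of a group share plates and depth. Of 171 pairs, 3 had a Spearman's rho above 0.3 in each of the 4 groups and 0 had one below -0.3 in each. Of the former, Kcna4 and Kcnb2 had rho values of 0.51, 0.44, 0.30 and 0.44 in TL Gfra3-only (n = 82), TL Piezo2-only (n = 55), LS Gfra3-only (n = 76) and LS Piezo2-only neurons (n = 65). Kcna1 and Kcnh6 ran against each other in TL Piezo2-only neurons, at -0.62, and at -0.12 in LS Piezo2-only neurons.

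The partners of the alpha subunits were taken from a list of auxiliary subunits, of which 15 were in the table. They were the Kcnab (Kv beta), Kcnip (KChIP), Dpp6 and Dpp10, Kcne and Amigo1 genes. Between the segments 0 were higher and 2 lower in LS of 9 that reached a mean of 10 (all genes: 2.46% and 2.26%), within the Gfra3-only class 1 and 2 of 7 (all genes: 1.88% and 1.56%), and within the Piezo2-only class 0 and 2 of 8 (all genes: 4.69% and 2.94%). Kcnip4, which encodes a calcium-binding partner of Kv4 channels, was lower in LS in each of these, with means of 137 in TL and 19.5 in LS Piezo2-only neurons and 22.5 and 8.75 in Gfra3-only neurons. Kcnip3, another KChIP, had means of 114 and 43.4 in TL and LS Piezo2-only and 17.9 and 16.0 in Gfra3-only neurons, so that the group with the highest Kcnd1 also had the highest level of both partners. Dpp10, which encodes a further Kv4 partner, was lower in LS Gfra3-only neurons, at 6.57 against 18.0, and Amigo1, whose product accompanies Kv2 channels, was higher there, at 22.7 against 10.7.

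Between the classes 1 auxiliary gene was higher (Dpp10) and 5 lower (Kcnab1, Kcnip1, Kcnip3, Kcnip4 and Amigo1) in Gfra3-only neurons of 9, against 3.99% and 5.48% of all genes. Within TL the counts were 1 and 5 of 9 (all genes: 4.96% and 5.57%), and within LS 0 and 3 of 8 (all genes: 3.98% and 5.32%). Kcnab1, which encodes a beta subunit that inactivates Kv1 channels, had means of 93.6 and 68.4 in TL and LS Piezo2-only against 13.5 and 10.2 in Gfra3-only neurons, the same class order as Kcna1. Kcnab2, another beta subunit gene, had the highest mean of the list in each of the 4 groups, 112 to 178. The Kcne genes had means of at most 5.05 in these groups.

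The promoter windows of the members that were higher together in LS Piezo2-only neurons, Kcna6, Kcnc2 and Kcnh6, are shown beside that of Kcnc4, which was lower in LS in both classes. RefSeq windows (GRCm38.p6) of 250 bases before to 50 after the start matched 25 of the 40 members. Each window was searched on both strands for the GC box (GGGCGG), the TATA box (TATAAA), the CCAAT box and the cyclic AMP response element (TGACGTCA). At least 1 GC box was present in 17 of these members, against 35.7% of all 32851 windows. A TATA box was present in 0 members against 13.6%, a CCAAT box in 5 against 37.4%, and the response element in 0 against 1.79%. A member with several windows was counted once, and a match in any of them sufficed, whereas the background is a share of single windows. Kcnc2 was counted for the GC box through its window at chr10:112269767-112270066, which is not shown and had 1 match. The member windows were also richer in G and C, with a median content of 66.0% (1 window a member) against 52.7% of all windows, and the part of this in the GC box count was not tested. The lines run 5′ to 3′ along the gene, with matches in capitals. Kcna6 is at chr6:126740625-126740924 on the minus strand with 0 GC box matches, Kcnc2 (the window at the GENCODE start) at chr10:112270871-112271170 on the plus strand with 0 GC box matches and 1 CCAAT box, Kcnh6 at chr11:106007898-106008197 on the plus strand with 3 GC box matches, and Kcnc4 at chr3:107458849-107459148 on the minus strand with 1.
Kcna6: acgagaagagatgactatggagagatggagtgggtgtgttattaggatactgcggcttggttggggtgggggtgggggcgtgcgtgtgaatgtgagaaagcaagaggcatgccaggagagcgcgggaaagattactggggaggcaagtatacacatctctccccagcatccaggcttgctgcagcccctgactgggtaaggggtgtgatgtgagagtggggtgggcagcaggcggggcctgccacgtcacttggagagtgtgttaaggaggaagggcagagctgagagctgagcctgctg
Kcnc2: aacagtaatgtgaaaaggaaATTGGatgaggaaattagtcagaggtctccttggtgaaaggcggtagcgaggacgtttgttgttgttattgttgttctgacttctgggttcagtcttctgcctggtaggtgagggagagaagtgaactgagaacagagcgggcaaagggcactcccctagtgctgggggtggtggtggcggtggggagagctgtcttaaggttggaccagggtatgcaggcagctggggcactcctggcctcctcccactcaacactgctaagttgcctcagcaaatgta
Kcnh6: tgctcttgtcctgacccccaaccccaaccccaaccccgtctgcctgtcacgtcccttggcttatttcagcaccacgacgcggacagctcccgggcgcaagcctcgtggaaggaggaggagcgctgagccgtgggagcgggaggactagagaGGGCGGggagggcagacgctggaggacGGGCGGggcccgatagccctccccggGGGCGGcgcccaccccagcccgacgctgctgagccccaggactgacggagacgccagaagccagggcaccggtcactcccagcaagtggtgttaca
Kcnc4: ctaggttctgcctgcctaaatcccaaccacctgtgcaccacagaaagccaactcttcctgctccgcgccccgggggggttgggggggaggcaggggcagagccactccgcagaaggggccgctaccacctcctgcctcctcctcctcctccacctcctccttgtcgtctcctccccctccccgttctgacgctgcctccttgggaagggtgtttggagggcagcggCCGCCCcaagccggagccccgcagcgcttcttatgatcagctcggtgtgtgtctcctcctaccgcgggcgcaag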

How the data were processed

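Per the labels and the study's methods, the authors sequenced 399 colonic sensory neurons (203 TL, 196 LS) and 13 bath controls on 6 plates. Submitters' processing notes name bcl2fastq 2.15.0.4, STAR 2.4.1, featureCounts 1.4.4 and build GRCm38.p3. The deposited table holds log2 values, log2(x + 1), for 325 neurons that had passed the authors' filter for low-quality cells. In it, x multiplied by gene length and divided by a factor per neuron gave whole reads. Bath controls and neurons outside this table were not used here. With GENCODE M21 gene lengths 65.0% of values above 0 were whole reads within 1e-06 of a read, and for 8712 genes the shortest length that gave whole reads was taken from the values. For 15 members this length differed from GENCODE M21, so that exons counted or not counted by the authors shift their level relative to other genes but not between neurons. Strand use in counting was not given in the sources used here, and 13 members overlap another gene (among them Kcna6, Kcnb2, Kcnd3, Kcnh1, Kcnh2 and Kcnh7), whose reads may be shared.

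The values x were rescaled to a sum of 1000000 per neuron (the level), and 44671 of 45513 gene IDs were named with GENCODE M21. No 2 neurons had identical values. TL and LS are each 1 sample, so no p-value is given. Groups were compared by their means with the direction in each of plates 2 to 6, in which the Gfra3-only and Piezo2-only classes each held at least 5 neurons of each segment, and shares with 95% Clopper-Pearson intervals (exact), whose width reflects counting error and no other error. Members described with values had a mean of at least 10 in at least 1 of 4 groups, and other genes were named only from the lists of auxiliary subunits and markers. Some members are not reported here. Members and lists were chosen with earlier results of these data known. The call rule and the recovery of reads were tested on simulated data. Alternatives were another scale, thresholds, folds, summaries and sets of neurons. Python 3.11.15, numpy 2.4.6, pandas 2.3.3 and scipy 1.17.1 were used.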

Additional observations from a re-analysis of the deposited data

Results flagged for a closer look

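Kcnh7 lay on opposite sides in the 2 classes. In Gfra3-only neurons its LS mean of 2.00 was 6.25-fold the TL mean of 0.319, higher in LS in each of plates 2 to 6, and in Piezo2-only neurons the ratio of LS to TL was 0.370, lower in each plate. Both Gfra3-only means were well under 10, and 0 of 82 TL and 1 of 76 LS neurons of that class reached 10. The difference between the classes was not tested.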

How the results depend on the processing

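Called members numbered 3 between segments over all neurons, 1 within the Gfra3-only and 10 within the Piezo2-only class, and 5 between classes over all neurons, 9 within TL and 5 within LS. With no minimum mean these became 11, 10, 16, 17, 14 and 17, and with a 3-fold limit 0, 0, 5, 1, 8 and 3. With a 1.5-fold limit, 2 within the Gfra3-only class, 10 between classes and 9 within LS were called. A threshold of 5 gave 5 between segments, 2 within the Gfra3-only class and 12 between classes, and one of 20 gave 2 between classes, 4 within TL and 1 within LS. CPM of the recovered reads, without gene length, gave 5 between segments, 3 within the Gfra3-only class and 10 between classes. Leaving out 1 of plates 2 to 6 gave 2 to 3 between segments, 1 to 1 and 9 to 11 within the Gfra3-only and Piezo2-only classes, and 4 to 6, 8 to 10 and 3 to 5 between classes over all, TL and LS neurons. The median number of members per neuron was 14 on the CPM scale and 6 with a threshold of 20, against 10, and 10 with each neuron thinned to 400000 reads. The shares of all genes given above hold for the main rule with all neurons only. The counts of called members under the alternatives thus stand without a background and are not read as a result about the members. The fold and minimum-mean alternatives change the rule itself, and for the others the cause was not tested. With mean log2 values in place of means, Kcna1, Kcna2, Kcnd1, Kcnc2, Kcnc4, Kcnh6, Kcnh7 and Kcna4 each lost at least 1 call. Leaving out neurons by glial, endothelial or Mrgprd level was chosen after seeing the data. Of the ratios of single members under an alternative, 1133 stayed within and 10 moved beyond the spread between plates (or 1.5-fold, where no such spread could be had). No called ratio changed direction. Within the Piezo2-only class the SD over plates of the log2 ratio of LS to TL was 0.47 for Kcna6 but 5.00 for Kcnv1. Where the spread was that wide, staying within it says little. No paired analysis was possible because the labels give no replicate numbers, and the only pairing they allow is by plate, within which the directions are given.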

Other observations

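Neurons with both Gfra3 and Piezo2 at 10 or more entered no comparison by class, but were part of the comparison of segments over all neurons. In the 18 TL neurons of this kind, Kcnd1, the A-type channel gene, had a mean of 108, Kcnv1 69.7, Kcns3 61.8, Kcnh6 47.6 and Kcng1 19.6, and Kcnc4 reached 10 in 11 of 18. In the 7 LS neurons the means were 52.8, 68.3, 134, 35.2 and 0.453 in the same order, and Kcnc4 reached 10 in 1 of 7.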
